A study of Mus musculus with 4 samples.

Results

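The genes studied here encode the constitutive 26S proteasome and were taken from the feature table of the count matrices by symbol alone: Psma1 to Psma7, Psmb1 to Psmb7, Psmc1 to Psmc6 and every Psmd gene with a number. This rule found 34 of 32285 genes, and no measured value entered it. The choice of this gene family was nonetheless made with earlier results of these data known. Of these genes, 14 encode the 20S core particle and 17 the 19S regulatory particle, while Psmd5, Psmd9 and Psmd10 are known as chaperones that help to assemble the regulatory particle and then leave it. The genes lie on 15 chromosomes and span 2.49 to 88.7 kb, and all 34 had enough UMIs to be compared over all cells.

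The proteasome is the main machine by which cells remove proteins tagged with ubiquitin. The core particle is a barrel of outer alpha rings and inner beta rings, and its cutting sites sit in Psmb5, Psmb6 and Psmb7. The regulatory particle caps the barrel: its base holds a ring of ATPases, the Psmc genes, that unfold the substrate, and its lid holds Psmd14, the enzyme that takes off the ubiquitin chain. Cells are known to raise most subunit genes together when proteasome capacity falls short, and immune signals can replace the cutting subunits with those of the immunoproteasome.

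Cells from the left lung lobe of male wild-type C57BL/6 mice were measured by scRNA-Seq in 4 libraries, each a pool of 3 mice. Young mice (2 to 3 months) and aged mice (22 months) each gave a nonventilated and a ventilated library. Ventilation lasted 3 hours at a high tidal volume. The ventilated mice also had anesthesia with ketamine and medetomidine, buprenorphine, vascular lines with fluid, and oxygen, whereas nonventilated mice were naive. These exposures cannot be told apart from ventilation here. The aged mice were kept on a restricted diet, and since the diet of the young mice was not given in the sources used here, diet and age cannot be told apart. With 1 library per group there were no replicates, so no test was run.

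Levels are UMIs (counted transcript tags) scaled to a common total of 1e+06 UMIs, written CPM, with 95% exact Poisson intervals. A ratio divides the CPM of ventilated by that of nonventilated cells and has a 95% exact conditional binomial interval. Both intervals cover counting error only, not the difference between mice or pools. In pairs of levels, the nonventilated library stands first.

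The retained cells numbered 2171 to 2976 per library, with median depths of 7871 to 9104 UMIs and totals of 22814008 to 28010151 UMIs. Mitochondrial genes took 3.42% to 3.79% of UMIs. Ribosomal protein genes took 6.81% in the young ventilated library and 8.46% to 8.88% in the others. Between 0 and 7 cell barcodes were shared by any pair of libraries. Clusters were named from marker genes, and 14 named classes with at least 10 cells in every library were compared.

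Sequences before the start sites are shown first because Nfe2l1 and Nfe2l2, known activators of this gene family, bind antioxidant response elements. RefSeq promoter windows of the GRCm38.p6 build matched 28 of the 34 genes with 30 windows, and the 250 bases before each start were searched on both strands. The core of that element, TGACNNNGC, was found in Psmb5, Psmb6, Psmc6, Psmd9 and Psmd12, or 16.7% of the windows, beside 10.2% of all 32851 windows. The ETS core CCGGAAG was found in 33.3% beside 6.91%, the GC box GGGCGG in 56.7% beside 32.7%, and CCAAT in 36.7% beside 33.8%. Matches of different motifs were counted separately, also where they share bases. A match describes the letters and is not a binding site.

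The windows of 4 genes with TGACNNNGC are printed, for the cutting subunits Psmb5 (chr14:54617996-54618245, minus strand) and Psmb6 (chr11:70525107-70525356, plus strand), the lid subunit Psmd12 (chr11:107479278-107479527, plus strand) and the chaperone Psmd9 (chr5:123227940-123228189, plus strand). The RefSeq start of Psmd9 lies inside the longer gene model of the annotation used for positions. Each window runs 5′ to 3′ on the strand of the gene, with the motif in capitals, and the motif of Psmd12 reads on the opposite strand.
Psmb5: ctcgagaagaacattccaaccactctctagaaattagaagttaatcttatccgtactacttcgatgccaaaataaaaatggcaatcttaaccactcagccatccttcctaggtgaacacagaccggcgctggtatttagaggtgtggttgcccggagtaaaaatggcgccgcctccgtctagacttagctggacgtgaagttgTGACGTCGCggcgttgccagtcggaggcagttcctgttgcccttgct
Psmb6: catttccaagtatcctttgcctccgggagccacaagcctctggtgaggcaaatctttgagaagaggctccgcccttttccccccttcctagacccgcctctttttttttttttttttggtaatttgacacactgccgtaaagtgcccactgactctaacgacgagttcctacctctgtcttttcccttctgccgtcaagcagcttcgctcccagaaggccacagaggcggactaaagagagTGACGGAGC
Psmd12: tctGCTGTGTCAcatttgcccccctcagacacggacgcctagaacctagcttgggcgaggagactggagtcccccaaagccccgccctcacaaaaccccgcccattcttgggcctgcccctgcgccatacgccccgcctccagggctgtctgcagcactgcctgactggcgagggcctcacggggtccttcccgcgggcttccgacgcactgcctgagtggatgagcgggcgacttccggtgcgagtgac
Psmd9: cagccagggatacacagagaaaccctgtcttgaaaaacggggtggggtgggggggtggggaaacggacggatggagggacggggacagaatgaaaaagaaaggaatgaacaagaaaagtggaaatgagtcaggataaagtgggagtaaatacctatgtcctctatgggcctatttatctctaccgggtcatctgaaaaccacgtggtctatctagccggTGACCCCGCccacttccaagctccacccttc

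Subunit transcripts took a larger share of all UMIs in the ventilated libraries at both ages. The 34 genes summed to 2777 CPM (2756 to 2798) in the young nonventilated and 3644 CPM (3621 to 3666) in the young ventilated library. In aged mice they summed to 2770.3 CPM (2749 to 2791) without and 3554 CPM (3529.7 to 3579) with ventilation. The ratio was 1.31 (1.30 to 1.33) in young and 1.28 (1.27 to 1.30) in aged mice. Between the ages, the aged over young ratio was 0.998 (0.987 to 1.01) without and 0.975 (0.966 to 0.984) with ventilation. In sums over all cells, more cells of a type and more RNA per cell cannot be told apart, so values within cell classes follow further on.

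**Figure D1:**
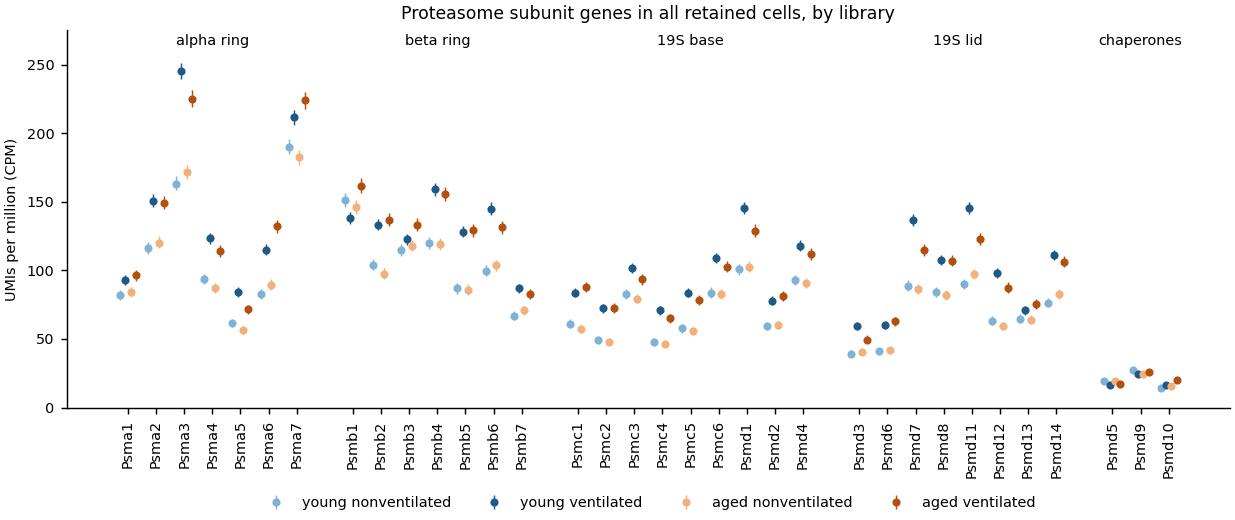
Level of each of the 34 genes in all retained cells, in CPM, by library, with 95% exact Poisson intervals as bars. Both ventilated points lie above both nonventilated points for most subunits, but not for Psmb1, Psmd5 and Psmd9. The share of all genes with this order is not given here.

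The direction was shared by nearly all of the genes. Of the 34 genes, 31 (91.2%) were higher in the young ventilated library, beside 39.1% of all genes tested. In the aged ventilated library 33 (97.1%) were higher, beside 38.2%. The median log2 ratios were 0.40 and 0.34, beside -0.14 and -0.12 over all genes tested. A gene was said to rise or fall where its ratio was at least 1.5 in either direction and its interval left out 1. By this rule 5 of 34 genes (14.7%) rose in young mice, beside 11.9% of all genes tested, and 4 of 34 genes (11.8%) in aged mice, beside 7.88%. None fell, beside 21.8% of all genes in young and 16.0% in aged mice. These shares of genes that rose lie near the background. With a lower limit, at 25% above equal levels, 25 of 34 genes (73.5%) passed in young mice, beside 20.0% of all genes, and 21 of 34 genes (61.8%) in aged mice, beside 16.0%. Most ratios of the family were thus modest. No subunit gene passed the limit of 1.5 between the ages. Of all genes, 2.51% were past it as higher and 1.47% as lower in aged nonventilated cells, and 5.83% and 5.06% in aged ventilated cells.

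The size of these ratios depended on the total used for scaling. Cell Ranger 7.0.0 counts intronic reads by default, and their part in these ratios was not tested. Genes with the longest spans had the lowest ratios. The median log2 ratio of all genes over 200 kb was -0.41 in young and -0.49 in aged mice, beside -0.07 and -0.019 for genes of 10 to 20 kb. Genes under 5 kb had -0.14 and 0.071, so the young medians did not fall steadily with span. The 9 subunit genes of 10 to 20 kb had 0.38 and 0.29. With the UMIs of genes under 20 kb as the total, an alternative chosen after seeing the data, the sum of the 34 genes had log2 ratios of 0.23 and 0.16, in place of 0.39 and 0.36. With median ratio scaling they were 0.65 and 0.55.

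All 7 genes of the alpha rings, the outer walls and gate of the core, were higher in both ventilated libraries. Of all genes tested, 39.1% were higher in young and 38.2% in aged mice. Psma3 was measured at 163 against 245 CPM in young and 172 against 225 CPM in aged mice. Its ratios were 1.50 (1.45 to 1.56) and 1.31 (1.26 to 1.37), and it rose in young mice. Psma6 had 82.8 against 115 CPM in young and 89.5 against 132 CPM in aged mice, with ratios of 1.39 (1.31 to 1.47) and 1.47 (1.39 to 1.56). For both genes, each ventilated library lay above each nonventilated one, an order whose share over all genes is not given here. Psma1 and Psma7 had the smallest ratios in young mice, 1.13 and 1.11, and Psma2, Psma4 and Psma5 had 1.29, 1.32 and 1.36. Summed over the alpha rings, the ratios were 1.29 (1.27 to 1.32) and 1.28 (1.253 to 1.30).

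The beta rings carry the cutting sites. Psmb5, the chymotrypsin-like subunit (chr14:54614119-54618022, minus strand), was measured at 86.8 against 128 CPM in young and 85.9 against 129 CPM in aged mice. Its ratios were 1.48 (1.40 to 1.56) and 1.50 (1.42 to 1.59), and it rose in aged mice by the rule, with a ratio just under the limit in young mice. Psmb6, the caspase-like subunit, had 99.6 against 145 CPM in young and 104 against 131 CPM in aged mice, with ratios of 1.46 (1.38 to 1.53) and 1.27 (1.20 to 1.34). Psmb7, the trypsin-like subunit, had 66.9 against 86.8 CPM in young and 70.9 against 82.8 CPM in aged mice, with ratios of 1.30 (1.22 to 1.38) and 1.17 (1.09 to 1.247). Each cutting subunit was thus higher in both ventilated libraries than in both nonventilated ones. How many of all genes had this order is not given here. Of the beta genes without a cutting site, Psmb2 had ratios of 1.28 and 1.40 in young and aged mice, Psmb4 had 1.33 and 1.31, and Psmb3 had 1.07 and 1.13.

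Psmb1, a structural beta subunit (chr17:15475021-15499751, minus strand), differed from the other core genes. It was measured at 151 against 138 CPM in young and 146 against 162 CPM in aged mice. Its ratios were 0.913 (0.873 to 0.956) and 1.11 (1.06 to 1.16), so the young libraries differed in the opposite direction to the aged ones, and neither ratio met the rule. With median ratio scaling the young log2 ratio was 0.12, and with the UMIs of genes under 20 kb as the total the aged one was -0.054, each the reverse in direction.

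All 9 genes of the base were higher in both ventilated libraries, beside 39.1% of all genes tested in young and 38.2% in aged mice. Psmc1, an ATPase, was measured at 61.0 against 83.8 CPM in young and 57.4 against 87.7 CPM in aged mice, with ratios of 1.37 (1.29 to 1.47) and 1.53 (1.43 to 1.64). Psmc2, another ATPase, had 48.9 against 72.2 CPM in young and 48.0 against 72.4 CPM in aged mice, with ratios of 1.48 (1.37 to 1.59) and 1.51 (1.40 to 1.63). Both rose in aged mice and lay below the limit in young mice. Of the other ATPases, Psmc4 and Psmc5 had young ratios of 1.48 and 1.45, Psmc6 had 1.30, and Psmc3 had the smallest, 1.22. Psmd1, the large scaffold subunit of the base, had 101 against 146 CPM in young and 103 against 129 CPM in aged mice, and Psmd4, a ubiquitin receptor, had 92.9 against 118 CPM in young and 90.9 against 112 CPM in aged mice. Their ratios were 1.44 and 1.26 for Psmd1 and 1.27 and 1.23 for Psmd4. Psmd2, the other scaffold subunit, had 1.31 and 1.35.

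The lid had the highest ratios in young mice. Psmd11 (chr11:80428615-80473248, plus strand), a scaffold subunit of the lid, was measured at 90.1 against 145 CPM in young and 97.2 against 123 CPM in aged mice, with ratios of 1.61 (1.53 to 1.70) and 1.26 (1.20 to 1.34). Psmd12 had 63.4 against 97.8 CPM in young and 59.2 against 87.3 CPM in aged mice, with ratios of 1.54 (1.45 to 1.64) and 1.47 (1.38 to 1.58). Psmd7, the partner of the deubiquitinase, had 88.8 against 137 CPM in young and 86.5 against 115 CPM in aged mice, with ratios of 1.54 (1.46 to 1.62) and 1.33 (1.26 to 1.41). These genes and Psmd3, with ratios of 1.51 (1.40 to 1.64) and 1.22 (1.12 to 1.33), rose in young mice and were below the limit in aged mice. Psmd6 had 41.0 against 60.3 CPM in young and 41.7 against 62.9 CPM in aged mice, and with ratios of 1.47 (1.36 to 1.59) and 1.51 (1.39 to 1.64) it rose in aged mice. Psmd14, the deubiquitinase itself, had 76.4 against 111 CPM in young and 82.6 against 106 CPM in aged mice, with ratios of 1.45 (1.37 to 1.54) and 1.29 (1.21 to 1.37). For all 6 of these genes, both ventilated libraries lay above both nonventilated ones, again without a share of all genes beside it. Psmd8 had ratios of 1.27 and 1.31, and Psmd13 had the smallest of the lid, 1.09 and 1.17.

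**Figure D2:**
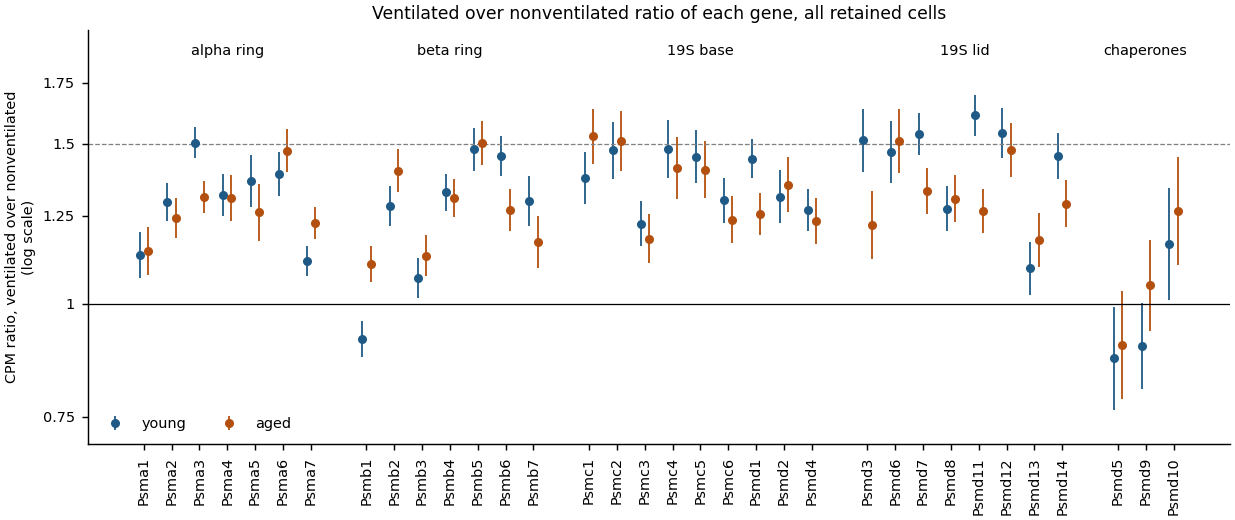
Ratio of CPM in ventilated over nonventilated cells for each gene, on a log scale, in young and aged mice, with 95% conditional binomial intervals as bars. The solid line marks 1 and the dashed line 1.5. Psmd11 in young mice has the highest ratio, 1.61, and Psmd5 in young mice the lowest, 0.870.

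Summed over their genes in all cells, the regulatory particle had larger ratios than the core. The 17 regulatory genes had 1183 against 1650.3 CPM in young and 1177 against 1548 CPM in aged mice, with ratios of 1.39 (1.37 to 1.42) and 1.32 (1.29 to 1.34). The 14 core genes had 1533 against 1936 CPM in young and 1534 against 1943 CPM in aged mice, with ratios of 1.26 (1.246 to 1.28) and 1.27 (1.249 to 1.28). Aged minus young, the log2 ratio differed by -0.085 (-0.12 to -0.054) for the regulatory particle and by 0.0048 (-0.023 to 0.032) for the core. Among single genes it differed by -0.35 (-0.46 to -0.24) for Psmd11 and by 0.28 (0.18 to 0.37) for Psmb1. These intervals again hold counting error only, and the difference between the ages was not tested. Of the 34 genes, 31 were higher and 1 was lower in the ventilated library at both ages.

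The assembly chaperones under the rule did not share 1 direction. Psmd5 was measured at 19.03 against 16.6 CPM in young and 19.04 against 17.1 CPM in aged mice, with ratios of 0.870 (0.764 to 0.992) and 0.9003 (0.785 to 1.03). Psmd9 had 27.1 against 24.3 CPM in young and 24.6 against 25.7 CPM in aged mice, with ratios of 0.899 (0.806 to 1.00) and 1.05 (0.933 to 1.18). Psmd10, also known as gankyrin, had 14.1 against 16.5 CPM in young and 15.9 against 20.2 CPM in aged mice, with ratios of 1.16 (1.01 to 1.34) and 1.26 (1.10 to 1.45). Psmd5 was lower and Psmd10 higher at both ages, and no chaperone met the rule.

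Some subunit genes have close copies elsewhere in the genome. Within the last 400 bases of the transcript, 11 of the 34 genes matched another gene with at least 95% identity over 90 bases or more, mostly processed pseudogenes, and these included Psma3, Psmb1, Psmb5, Psmc1 and Psmd11. None of the copies was in the count table. The values of these genes are less certain, since it was not examined how reads that fit both places were counted.

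Within cell classes, the sum of the subunit genes was higher in ventilated cells in 13 of 14 classes in young and 13 of 14 in aged mice. The interval of the ratio lay above 1 in 13 classes in young and 12 in aged mice. The median log2 ratio over the classes was 0.38 in young and 0.28 in aged mice. The core had a larger ratio than the regulatory particle in alveolar macrophage-like and natural killer or T cell-like cells at both ages. It also did in aged smooth muscle or myofibroblast-like cells. In all other cases the regulatory particle had the larger ratio. Class names end in -like because they rest on markers.

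**Figure D3:**
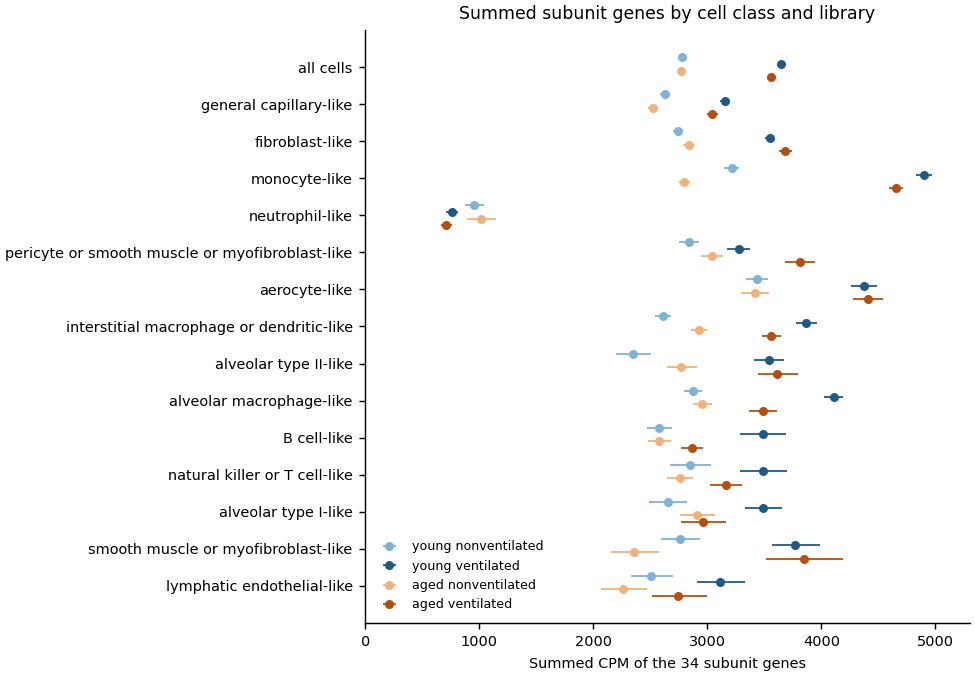
Summed CPM of the 34 subunit genes by cell class and library, with 95% exact Poisson intervals as bars. In all classes but the neutrophil-like cells, the ventilated library of each age has a higher sum than the nonventilated one.

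Monocyte-like cells had the highest ratios of the sum at both ages. Their sum was 3213 CPM (3149 to 3278) in the young nonventilated, 4901 CPM (4831 to 4971) in the young ventilated, 2798 CPM (2749 to 2847) in the aged nonventilated and 4653 CPM (4593 to 4713) in the aged ventilated library. The ratios were 1.53 (1.49 to 1.56) and 1.66 (1.63 to 1.70). In young mice 23 of 34 genes (67.6%) rose, beside 16.3% of all genes tested in these cells, and in aged mice 23 of 34 genes (67.6%), beside 15.7%. Psma6 was measured at 83.5 against 196 CPM in young and 85.0 against 219 CPM in aged mice, with ratios of 2.35 (2.04 to 2.72) and 2.57 (2.29 to 2.90). Psmb5 had 111 against 229.9 CPM in young and 88.8 against 215 CPM in aged mice, with ratios of 2.08 (1.83 to 2.36) and 2.42 (2.16 to 2.72). Psmb6 had 82.5 against 191 CPM in young and 83.0 against 175 CPM in aged mice, with ratios of 2.32 (2.00 to 2.69) and 2.11 (1.87 to 2.39). For these core genes, both ventilated libraries lay far above both nonventilated ones, and the share of all genes with this order is not given here. Psmd1 had the highest ratio in young mice, 2.56 (2.19 to 3.02), and Psmd6 had 2.45 (2.04 to 2.95) in aged mice. Among the lowest, Psmd9 had 0.734 (0.551 to 0.977) and 1.04 (0.796 to 1.36), Psma1 had 0.945 (0.832 to 1.07) and 1.20 (1.07 to 1.34), and Psmb1 had 0.843 (0.760 to 0.936) in young mice.

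The makeup of the monocyte-like class differed between libraries. It joined a nonclassical cluster with a classical one that held 107 cells of the young and 142 of the aged ventilated library and 0 nonventilated cells. Summed classical monocyte markers in the class were at 2530.0 against 3988 CPM in young and 1184 against 4365 CPM in aged mice. Summed neutrophil markers were at 222 against 1239 CPM and 226 against 2781 CPM, and the part of either in the result was not tested. Within the nonclassical cluster alone, the log2 ratios of the sum were 0.39 and 0.44. At a resolution of 0.5, they were 0.75 and 0.51 in nonclassical and 0.53 and 0.80 in classical monocyte-like cells, and the latter again lay in different clusters, of which one held 105 against 1 young and 90 against 3 aged cells and another 0 against 108 young and 0 against 142 aged cells.

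Macrophages had larger ratios in young than in aged mice. In alveolar macrophage-like cells the sum was 2870.4 against 4107 CPM in young and 2953 against 3487 CPM in aged mice, with ratios of 1.43 (1.38 to 1.48) and 1.18 (1.13 to 1.24). Here 13 of 34 genes (38.2%) rose in young mice, beside 10.9% of all genes, and 2 of 34 genes (5.88%) in aged mice, beside 5.14%. Psmb6 was measured at 69.7 against 169 CPM in young and 94.1 against 99.6 CPM in aged mice, with ratios of 2.42 (1.96 to 3.00) and 1.06 (0.807 to 1.38). Psmb5 had 82.5 against 189 CPM in young and 95.9 against 141 CPM in aged mice, with ratios of 2.29 (1.89 to 2.79) and 1.47 (1.15 to 1.86). For both cutting subunits, the young ventilated library was the highest. Psmd12 had 2.03 (1.56 to 2.67) in young mice, and Psmd7 had 1.66 (1.28 to 2.16) in aged mice. Psmd4 had 0.766 (0.589 to 0.989) in aged mice. Aged minus young, the log2 ratio of the sum differed by -0.28 (-0.36 to -0.20), which was not tested between pools, and the aged ventilated library held 52 of these cells, beside 98 to 108 in the others. After thinning all cells to 1000 UMIs, the log2 ratio in aged mice was -0.039 in place of 0.24, the reverse in direction. Thinning left a small part of the UMIs of these cells, whose median was 19000 in the aged ventilated library. The thinned value has no interval here and may lie within counting error of equal levels.

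In interstitial macrophage or dendritic-like cells the sum was 2609 against 3867 CPM in young and 2927 against 3560.0 CPM in aged mice, with ratios of 1.48 (1.43 to 1.54) and 1.22 (1.18 to 1.26). In young mice 16 of 34 genes (47.1%) rose, beside 12.7% of all genes, and in aged mice 3 of 34 genes (8.82%), beside 8.27%. ATPase genes led at both ages: Psmc4 had ratios of 2.47 (1.84 to 3.34) and 1.51 (1.14 to 2.01), and Psmc5 had 2.17 (1.64 to 2.89) and 1.99 (1.54 to 2.59). Psmc2 had 2.23 (1.65 to 3.04) in young mice, and Psmc1 had 1.02 (0.720 to 1.45) and 1.86 (1.37 to 2.53) in young and aged mice. At a resolution of 0.5, the log2 ratios of the sum were 0.65 and 0.26 in interstitial macrophage-like and 0.42 and 0.32 in dendritic-like cells.

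Neutrophil-like cells had the lowest sums and were the exception in direction. Their sum was 955 against 763 CPM in young and 1013 against 709.8 CPM in aged mice, with ratios of 0.799 (0.715 to 0.892) and 0.7004 (0.608 to 0.809). The median log2 ratio of the subunit genes tested was -0.29 and -0.29, beside -0.39 and -0.40 over all genes tested in these cells. With median ratio scaling the sum had log2 ratios of 0.12 and 0.014, the reverse in direction. In young mice 4 of 24 genes (16.7%) fell, beside 32.8% of all genes, and in aged mice 4 of 25 genes (16.0%), beside 26.9%. Psma7 fell at both ages, with 53 against 36 UMIs in young and 30 against 41 UMIs in aged cells and ratios of 0.346 (0.220 to 0.538) and 0.254 (0.155 to 0.421). Psmb3 fell in young mice, with 0.262 (0.137 to 0.484), while Psmd1 and Psma4 fell in aged mice, with 0.217 (0.0931 to 0.513) and 0.325 (0.127 to 0.895); Psmd1 had 12 against 14 UMIs there. Psmd14 had 1.89 (1.03 to 3.69) in young mice. These cells made up 4.82% against 7.46% of the young and 2.38% against 11.8% of the aged cells. Without them, again an alternative chosen after seeing the data, the sum over all other cells had log2 ratios of 0.42 and 0.42.

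In fibroblast-like cells the sum was 2738 against 3545 CPM in young and 2835 against 3683 CPM in aged mice, with ratios of 1.29 (1.27 to 1.32) and 1.30 (1.27 to 1.33). In young mice 5 of 34 genes (14.7%) rose, beside 17.3% of all genes, and in aged mice 5 of 34 genes (14.7%), beside 12.2%. Psmc1 was measured at 68.0 against 126 CPM in young and 69.1 against 137 CPM in aged mice, with ratios of 1.85 (1.64 to 2.09) and 1.98 (1.73 to 2.28). Psmd3 had 1.83 (1.55 to 2.17) and 1.80 (1.48 to 2.20), Psmd11 had 1.84 (1.64 to 2.05) in young mice, and Psmd14 had 1.82 (1.55 to 2.13) in aged mice. The lowest in young mice were Psmd5, with 0.785 (0.603 to 1.02), and Psmb1, with 0.909 (0.825 to 1.00). At a resolution of 0.5, different clusters held many of these cells with and without ventilation: one held 6 against 443 young and 2 against 218 aged cells, and another 232 against 0 young and 193 against 2 aged cells.

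Among endothelial cells, the sum in general capillary-like cells was 2626 against 3157 CPM in young and 2522 against 3044 CPM in aged mice, with ratios of 1.20 (1.18 to 1.23) and 1.21 (1.18 to 1.24). In young mice 3 of 33 genes (9.09%) rose, beside 12.5% of all genes, and in aged mice 2 of 33 genes (6.06%), beside 10.8%. Psma3 had 1.63 (1.49 to 1.77) in young mice, and Psmd12 had 1.63 (1.42 to 1.88) in aged mice. At a resolution of 0.5, most of these cells lay in different clusters with and without ventilation: one held 582 against 16 young and 497 against 60 aged cells, and the other 6 against 633 young and 12 against 303 aged cells. A venous endothelial-like cluster of 318 cells also appeared at that resolution, with log2 ratios of the sum of 0.28 and 0.38. How many of its cells belong to the general capillary-like class is not given here, so that class may hold more than capillary cells. In aerocyte-like cells, the capillary cells specialized for gas exchange, the sum was 3433 against 4373 CPM in young and 3416 against 4407 CPM in aged mice, with ratios of 1.27 (1.23 to 1.32) and 1.29 (1.23 to 1.35). There 8 of 34 genes (23.5%) rose in young mice, beside 13.3% of all genes, and 6 of 34 genes (17.6%) in aged mice, beside 9.81%. Psmd6 had 2.22 (1.61 to 3.08) in young mice, and Psmd12 had 1.91 (1.42 to 2.59) in aged mice. Lymphatic endothelial-like cells, with 20 to 31 cells per library, had ratios of the sum of 1.24 (1.12 to 1.37) and 1.22 (1.07 to 1.38). Pericyte or smooth muscle or myofibroblast-like cells had 1.15 (1.10 to 1.20) and 1.26 (1.20 to 1.32), and smooth muscle or myofibroblast-like cells, with 16 to 37 cells per library, had 1.37 (1.255 to 1.49) and 1.63 (1.44 to 1.85). The aged log2 ratio of the latter, 0.71, was -0.0052 with cells thinned to 1000 UMIs, a value without an interval here.

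In alveolar type II-like cells, which make surfactant, the sum was 2349 against 3539.8 CPM in young and 2772 against 3614 CPM in aged mice, with ratios of 1.51 (1.40 to 1.63) and 1.30 (1.22 to 1.40). In young mice 13 of 32 genes (40.6%) rose, beside 15.6% of all genes, and in aged mice 7 of 32 genes (21.9%), beside 10.5%. Psmd7 was measured at 49.9 against 167 CPM in young and 76.7 against 142 CPM in aged mice, with ratios of 3.35 (2.06 to 5.74) and 1.85 (1.26 to 2.76). Psmb2 had 3.00 (1.66 to 5.88) and 1.83 (1.22 to 2.78), and Psmd11 had 2.06 (1.47 to 2.91) in aged mice. The class was shallow, with a median of 1626.5 UMIs, and when the cells with the highest doublet scores were left out, the young log2 ratio was -0.45 in place of 0.59. At a resolution of 0.5, the alveolar type II-like cluster held 11 to 25 deeper cells per library, with log2 ratios of 0.86 and 0.39. It held 76 cells in all, beside 388 in the class, so most cells of the class did not keep the name there. An unnamed cluster at that resolution held 312 cells with a median of 1234.5 UMIs. Alveolar type I-like cells, with 19 to 36 cells per library, had ratios of 1.31 (1.22 to 1.42) and 1.02 (0.934 to 1.11). With cells thinned to 1000 UMIs, the aged log2 ratio of 0.025 was -0.19, a value without an interval here. In B cell-like cells the ratios of the sum were 1.35 (1.26 to 1.45) and 1.11 (1.05 to 1.17), and in natural killer or T cell-like cells 1.23 (1.12 to 1.34) and 1.15 (1.08 to 1.22). With the UMIs of genes under 20 kb as the total, the aged log2 ratio of B cell-like cells was -0.006 in place of 0.15, the reverse in direction.

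**Figure D4:**
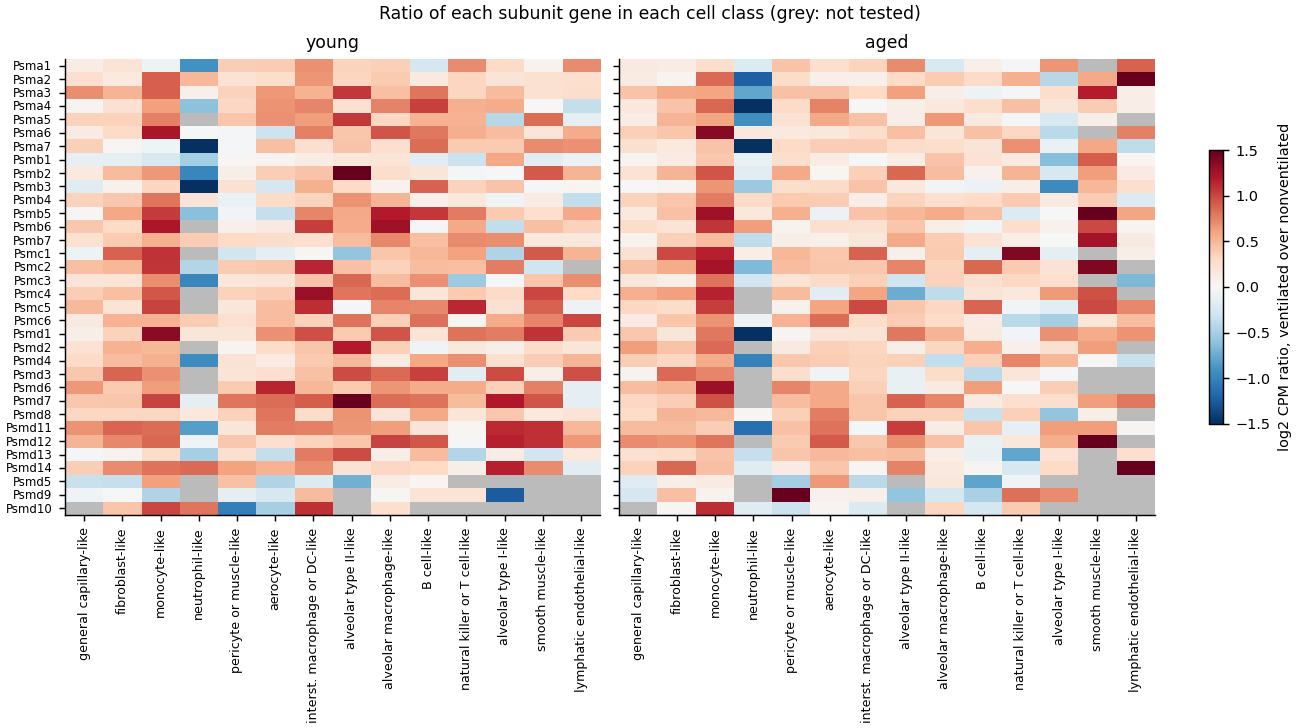
Log2 ratio of CPM in ventilated over nonventilated cells for each subunit gene and each cell class, in young and aged mice, on a color scale, with grey where a gene had too few UMIs. Ratios above 0 prevail in the monocyte-like class, where Psma6 has 1.23 and 1.36, and ratios below 0 are frequent in the neutrophil-like class.

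Across the classes, the genes followed each other to different degrees. Over the 52 points given by 13 classes and 4 libraries, without neutrophil-like cells, the level of Psmd6 had a correlation of 0.840 with the summed level of the other subunit genes. Psmd5, Psmd9 and Psmb1 had -0.18, 0.027 and 0.24, and Psmd10 and Psmc1 had 0.27 and 0.29. Psmd5, Psmd9 and Psmd10 had low counts, and counting error can lower their correlations. Over all 56 points, with neutrophil-like cells, Psmd6 had 0.945, Psmb1 0.799, Psmc1 0.754, Psmd9 0.669, Psmd5 0.457 and Psmd10 0.099. These points share libraries and classes, so the correlations are a description. Psmd11 was higher in ventilated cells in 13 of 14 classes in young and 11 of 14 in aged mice, and Psmb1 in 6 of 14 and 11 of 14.

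Psmb8, Psmb9 and Psmb10 encode the immunoproteasome subunits that replace Psmb5, Psmb6 and Psmb7 under interferon. Psmb8 was measured at 155 against 218 CPM in young and 161 against 161 CPM in aged mice, with ratios of 1.41 (1.35 to 1.47) and 0.997 (0.953 to 1.04). Psmb10 had 99.0 against 136 CPM in young and 97.1 against 102 CPM in aged mice, with ratios of 1.37 (1.31 to 1.45) and 1.05 (0.992 to 1.11). Psmb9 had 78.1 against 67.7 CPM in young and 77.4 against 68.2 CPM in aged mice, with ratios of 0.866 (0.812 to 0.924) and 0.881 (0.824 to 0.943). None met the rule at either age. The UMIs of the 3 immunoproteasome genes over those of the 3 constitutive cutting genes were 1.31 against 1.17 in young and 1.29 against 0.964 in aged mice. In monocyte-like cells this quotient was 2.15 against 1.32 in young and 1.68 against 0.896 in aged mice, and in alveolar macrophage-like cells it was 0.813 against 0.377 in young and 0.834 against 0.445 in aged mice. It was thus lower in ventilated cells of both classes. In general capillary-like cells it was 2.06 against 2.63 in young and 1.89 against 1.41 in aged mice.

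Among 5 other regulators of the core, 2 rose in young and 0 in aged mice, beside 11.9% and 7.88% of all genes tested. Psme2, a subunit of the interferon-induced 11S cap, had 104 against 191 CPM in young and 109 against 151 CPM in aged mice, with ratios of 1.84 (1.76 to 1.93) and 1.39 (1.32 to 1.46), and Psme3, the nuclear 11S cap, had 1.62 (1.45 to 1.81) and 1.43 (1.28 to 1.61). Of 5 core assembly chaperones, Psmg2 fell in young mice, with 0.576 (0.494 to 0.671), and none passed in aged mice. Of all genes tested, 21.8% fell in young and 16.0% in aged mice. Of 4 further regulatory subunits and deubiquitinases, none passed at either age.

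Of 5 genes known to control the subunit genes, none passed at either age. Nfe2l1 had 99.6 against 109.9 CPM in young and 96.5 against 85.7 CPM in aged mice, with ratios of 1.10 (1.05 to 1.16) and 0.888 (0.836 to 0.944). Nfe2l2 had 328 against 446 CPM in young and 429 against 506 CPM in aged mice, with ratios of 1.36 (1.32 to 1.40) and 1.18 (1.15 to 1.21). Both factors are known to be controlled largely as proteins, which were not measured. Of 7 oxidative stress genes tested, 6 rose in young and 6 in aged mice, beside 11.9% and 7.88% of all genes tested. Their median log2 ratios were 1.69 and 1.44. Hmox1, which breaks down heme, had 29.0 against 366 CPM in young and 32.3 against 461 CPM in aged mice, with ratios of 12.6 (11.7 to 13.7) and 14.3 (13.3 to 15.4). Gclc, which makes glutathione precursor, had ratios of 4.87 (4.65 to 5.11) and 2.64 (2.52 to 2.77).

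Of 8 chaperones, listed as inducible although Hspa8 is largely constitutive, 3 rose and 2 fell in young mice, and 1 rose and 1 fell in aged mice. Of all genes tested, 11.9% rose and 21.8% fell in young mice, and 7.88% rose and 16.0% fell in aged mice. In so short a list, such counts say little beside these shares. Hsp90aa1 had ratios of 1.90 (1.85 to 1.94) and 1.42 (1.39 to 1.46), and Hspb1 had 1.82 (1.77 to 1.87) and 2.57 (2.50 to 2.65). Hspa8 had 1.74 (1.71 to 1.77) and 1.45 (1.43 to 1.48). Hspa1a and Hspa1b fell in young mice, with 0.455 (0.430 to 0.482) and 0.308 (0.282 to 0.337), and as near-identical copies they are uncertain.

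The CCT chaperonin, which folds actin and tubulin, had 8 of 8 genes higher in ventilated cells in young and 8 in aged mice. Of all genes tested, 39.1% and 38.2% were higher. The median log2 ratios of the CCT genes were 0.57 and 0.42. Cct3 rose at both ages, with 2.00 (1.89 to 2.12) and 1.66 (1.56 to 1.76), and Cct6a rose in young mice, with 1.62 (1.54 to 1.71). The CCT genes that rose were thus 2 of 8 in young and 1 of 8 in aged mice, beside 11.9% and 7.88% of all genes tested. The COP9 signalosome, a relative of the lid, had no gene past the limit among 8 tested, with medians of 0.22 and 0.16. Beside these, the core had medians of 0.39 and 0.34, and the regulatory particle 0.54 and 0.38.

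**Figure D5:**
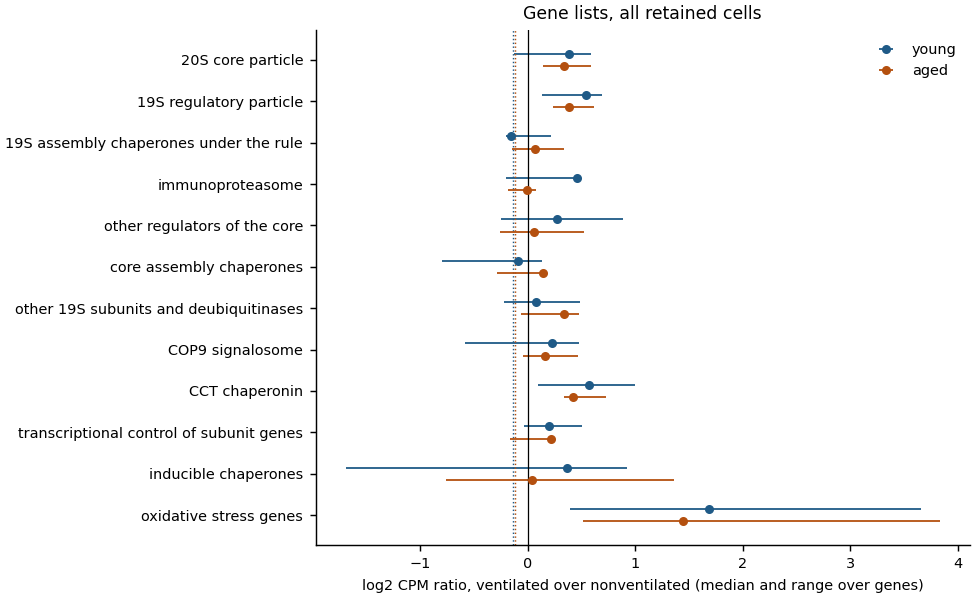
Median (point) and range (bar) of the log2 ratio of CPM in ventilated over nonventilated cells over the genes of each list, in young and aged mice, with dotted lines at the medians of all genes tested. The oxidative stress genes reach 3.66 in young and 3.83 in aged mice, beyond the highest subunit genes at 0.69 and 0.61.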

How the data were processed

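Droplet-based scRNA-Seq counts of 4 pooled mouse lung libraries were used. The authors aligned reads to mm10 with Cell Ranger 7.0.0 and deposited raw UMI counts as whole numbers. Of 15428 barcodes, 10160 were kept as cells: they had 200 to 5000 genes, a mitochondrial share up to 10% and no more UMIs than the 93rd percentile of all barcodes (28597). Which barcodes the percentile should be taken over was not clear from the study's methods. Cells were clustered in R 4.3.3 with Seurat 5.3.0 and Matrix 1.6.5 (2000 variable genes without subunit genes, 37 principal components, resolution of 0.18), which gave 19 clusters. Other steps used Python 3.11.15 with matplotlib 3.10.9, scanpy 1.11.5, pandas 2.3.3, scipy 1.17.1 and numpy 2.4.6. Clusters were named from fixed lists of 8 markers per type; the naming rule, the joining of monocyte clusters and the minimum of 10 cells per library were set after the clusters were seen.

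UMIs were summed per library and class and scaled to CPM. Log2 ratios had 1 UMI added to each sum. Genes were tested against the call rule with 20 UMIs or more over the pair compared and a 4-library mean of 10 CPM or more. A call needed a ratio of 1.5 and a 95% counting interval that left out 1, which is a rule of size and not a test. Library depth, 22814008 to 28010151 UMIs in retained cells, sets the width of the intervals. The call rule and intervals were tested on simulated counts that held Poisson counting error only. That check says nothing of differences between mice or pools. All subunit genes were named over all cells, the 3 highest and 3 lowest per class described were eligible to be named, and of other lists up to 4 genes past the limit. Further genes of those lists, and the genes singled out in the text beyond this, were chosen after their values were seen. The subunit genes and lists were chosen with earlier results of these data known. Scrublet marked 38 of 10160 cells (0.374%), too few for it to have worked, so doublets were not removed. Gene positions came from a GRCm38 annotation matched by identifier for 32235 of 32285 genes, and promoter windows from RefSeq. Alternatives varied the cell filter, clustering, scaling, weighting, depth and limits. Some genes of the lists are not reported here.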

Additional observations from a re-analysis of the deposited data

Results flagged for a closer look

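Psmb1 over all cells had a ventilated over nonventilated log2 ratio of -0.13 in young mice and one of 0.15 in aged mice. It stood out because the libraries of the 2 ages differed in opposite directions, each with a counting interval of the ratio that left out 1. The difference between the ages was not tested, since each group was 1 pooled library. With each cell thinned to 1000 UMIs the values were -0.018 and -0.011, which rest on fewer UMIs and have no interval here.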

How the results depend on the processing

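The summed subunit genes were higher in both ventilated libraries under every alternative run over all cells. In the order of young and aged mice, their log2 ratios of 0.39 and 0.36 became 0.35 and 0.31 with the UMI limit at the 93rd percentile of the barcodes left, 0.41 and 0.37 with a mitochondrial limit of 5%, 0.65 and 0.55 with median ratio scaling, 0.33 and 0.27 with the mean of per-cell CPM, and 0.32 and 0.27 with cells thinned to 1000 UMIs. The young value was 0.35 without mitochondrial and ribosomal protein genes in the total, and the aged value was 0.33 with equal class weights and 0.34 with no upper limit on genes or UMIs. Among alternatives chosen after seeing the data, the values were 0.23 and 0.16 with the UMIs of genes under 20 kb as the total, and 0.42 and 0.42 without neutrophil-like cells.

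The counts of subunit genes past the limit, 5 in young and 4 in aged mice, were 25 and 21 with the limit at 25% above equal levels, 0 and 0 at a ratio of 2, 25 and 11 with median ratio scaling, 3 and 0 with the mean of per-cell CPM, 1 and 0 with the UMI limit of the barcodes left, and 0 and 0 with genes under 20 kb as the total. The young count was 2 when thinned, 2 without mitochondrial and ribosomal protein genes and 8 without neutrophil-like cells. The aged count was 1 with equal class weights, 1 with no upper limit on UMIs and 0 with no upper limit on genes or UMIs. This count thus moved with the limit and with the total chosen. The share of all genes past the limit can move with the same settings. At 25% above equal levels it was 20.0% in young and 16.0% in aged mice, beside 73.5% and 61.8% of the subunit genes. It is not given here for the other alternatives, so their counts cannot be set against those of other genes.

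Aged over young, the nonventilated log2 ratio was 0.018 with no upper limit on genes or UMIs and 0.015 with genes under 20 kb as the total, and thinning gave 1 gene past the limit. The ventilated ratio of -0.036 was -0.051 with no upper limit on UMIs, -0.0080 without mitochondrial and ribosomal protein genes, -0.11 with median ratio scaling, -0.079 with the mean of per-cell CPM, -0.070 with equal class weights, -0.052 with genes under 20 kb as the total and -0.012 without neutrophil-like cells.

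Within classes, the ventilated over nonventilated log2 ratio of the sum changed sign in alveolar type II-like cells in young mice, with -0.45 without the highest doublet scores, and in neutrophil-like cells, with 0.12 in young and 0.014 in aged mice under median ratio scaling. In aged mice it also changed sign when thinned in smooth muscle or myofibroblast-like cells (-0.0052), alveolar macrophage-like cells (-0.039) and alveolar type I-like cells (-0.19), and with genes under 20 kb as the total in B cell-like cells (-0.0060) and alveolar type I-like cells (-0.016). The cause was not tested. Aged over young, class sums changed sign in several classes. Over all 4 comparisons, 464 values of class sums stayed within their counting interval and 154 moved beyond it. A further 2, in young alveolar type II-like and aged smooth muscle or myofibroblast-like cells, were counted apart as reversed. Of single genes, 1317 values stayed and 315 moved. No paired analysis was possible because each group holds 1 library. No result had a replicate to leave out, and differences between pools cannot be separated from age or ventilation. Depth limits the chaperone genes and the smaller classes, whose intervals are wide.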
